A study of Mus musculus with 2 samples.

Results

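The 10 genes described here carry cholesterol into, within and out of cells: Scarb1, Soat1, Lipe, Plin2, Apoe, Abca1, Abcg1, Stard3, Tspo and Vdac1. They were listed by name as genes of cholesterol uptake, storage and transport, with earlier results of these data known, and stand among 21755 protein-coding genes of GENCODE release M21 on chromosomes 1 to 19 and X. All 10 were found in the annotation. DNase-seq, in which the nuclease DNase I cuts open chromatin, was done on adrenal gland tissue of female B6CASTF1/J mice at 4 days of age. This strain is a first-generation hybrid, and the peak lists do not separate its alleles. There was 1 group with 2 libraries, named biological replicates 1 and 2, no treated or control group and therefore no test between groups. The labels mention 3 females for each sample and give both samples 1 donor identifier, so whether the replicates came from separate animals is not settled, and the spread between them may be technical.

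Steroid-producing cells of the adrenal cortex take up cholesteryl esters from circulating lipoproteins, chiefly high-density lipoprotein in rodents, and keep them in lipid droplets. When adrenocorticotropic hormone acts on the cortex, the esters are hydrolysed and free cholesterol is carried to the inner mitochondrial membrane, where steroid synthesis starts. Cholesterol that is not used leaves the cell through membrane transporters that load it onto lipoproteins.

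Each gene was described by its peaks, which are regions with a local excess of cuts, in the longer of the peak lists deposited for each library. The lists held 46031 peaks in replicate 1 and 87387 in replicate 2, and positions are on mm10 throughout. The value given for a peak is the authors' deposited signal, and the sources used here give neither its scaling nor the read depth, so the counting error of a single peak is unknown. A TSS peak overlaps the 1 kb to either side of an annotated transcription start site (TSS) of the gene. A distal peak is centred over 1 kb from every annotated TSS of any gene and lies in the gene or within 50 kb of it. In whole tissue, a site that is open in fewer cells and a site that is less open per cell cannot be told apart. Among 14 markers of the gland, 5 had a TSS peak in both libraries: Nr5a1, Cyp11a1, Mrap, Chga and Chgb. Of the cortex markers among them Nr5a1 was highest, with 1.77 in replicate 1 and 5.07 in replicate 2, and of the medulla markers Chgb, with 2.85 and 8.12. Star and Cyp21a1 had one in replicate 2 alone. Hsd3b1, Cyp11b1, Mc2r, Th, Dbh and Pnmt had none. Of the markers of other cells that use these genes, a TSS peak in both libraries was present at 2 of 8 for adipocytes, the stronger at Plin1 with 1.03 and 4.05 in replicates 1 and 2, at 1 of 9 for macrophages, Ptprc with 0.367 and 0.405, and at 0 of 8 for hepatocytes. Spi1, another macrophage marker, had 0.836 in replicate 1 alone, and Apoa2, the only hepatocyte marker with a TSS peak, 1.34 in replicate 2 alone. These shares, 35.7% for the gland and 25%, 11.1% and 0% for the other cells, all lay below the 61.3% of all protein-coding genes. Shared distal peaks within 50 kb numbered 25 over the gland markers and 13, 21 and 6 over the adipocyte, macrophage and hepatocyte markers. The part of these other cells in the values below was not tested.

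The start sites of 8 of the 10 genes, or 80%, were open in both libraries, and those of the efflux genes Apoe and Abcg1 were called open in replicate 2 alone. The shares of all 21755 genes were 61.3% for both libraries and 5.00% for replicate 2 alone. The same 8 genes also had a TSS peak in both of the shorter lists, as did 54.8% of all genes. A peak near any annotated start site counts, and the 10 genes had a median of 7.5 such sites against 3 over all genes. With the most upstream start site only, 7 of the 10 genes and 56.8% of all genes had a peak in both libraries. The median of the strongest TSS signal was 2.16 in replicate 1 over the 8 genes with a peak, against 2.08 over 13535 genes with a peak. In replicate 2 it was 4.01 over the 10 genes, against 4.03 over 14433 genes. Lipe, Scarb1 and Abca1 led the 10 genes in replicate 2, and Lipe, Soat1 and Scarb1 in replicate 1. In replicate 2 the 10 genes ran from percentile 5.19 at Abcg1 to 90 at Lipe, so they did not sit at one level.

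**Figure D1:**
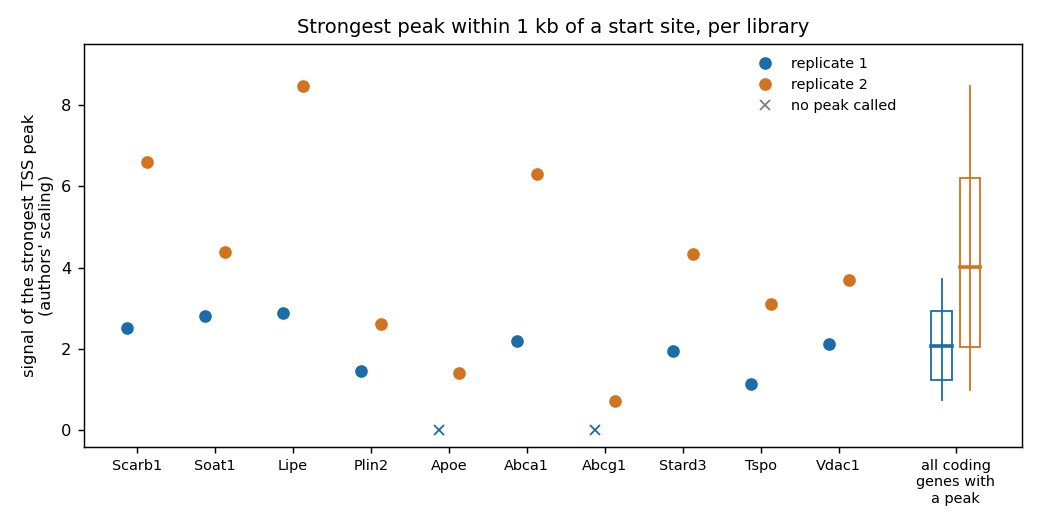
Deposited signal of the strongest peak within 1 kb of a start site (vertical axis, authors' scaling) for each of the 10 genes, with 1 point per library and a cross where no peak was called. The boxes at the right give the median and the middle 50% of all protein-coding genes with a peak, and the lines run from the 10th to the 90th percentile; Lipe is highest in both libraries, and Apoe and Abcg1 have no peak in replicate 1.

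Scarb1, on chromosome 5 from 125277087 to 125341094 on the minus strand, encodes the scavenger receptor class B type 1, which takes cholesteryl esters from high-density lipoprotein. Its main promoter peak spanned the annotated 5′ end, from 125340881 to 125341220 over both libraries, and reached 2.51 in replicate 1 and 6.60 in replicate 2. These stood at percentiles 62.8 and 78.3 of the strongest TSS signals of each library. The lowest deposited false discovery rate of the cut rate within it was 1.77e-10 in replicate 1 and 6.91e-26 in replicate 2. It held 2 footprints, short stretches protected from cutting, in replicate 1 and 5 in replicate 2, of which 3 overlapped between the libraries. Scarb1 has 11 annotated start sites, against a median of 3 over all protein-coding genes. The 7 other TSS regions of Scarb1 were each found in 1 library, 5 of them in replicate 2, with signals from 0.819 to 1.64.

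Around Scarb1 lay 11 distal peaks that overlapped between the libraries, the most of the 10 genes. Of all protein-coding genes, 0.308% had as many or more. The distal peaks of Scarb1 were singled out because several had already been seen in these lists, so this share describes them and is no independent evidence. Of the 11 peaks, 7 lay past the 3′ end of the gene, between 69384 and 95257 bp from its 5′ end, all within introns of the long intergenic non-coding RNA gene Gm32585. The other 4 lay upstream, at 3406, 7556, 27739 and 41726 bp from the 5′ end. No distal peak inside Scarb1 was found in both libraries, though replicate 2 alone had peaks of 1.97 at 10244 bp and 0.325 at 16616 bp into the gene. The nearest protein-coding start site was that of Scarb1 for 9 of the 11 peaks. For the 7 past the 3′ end it was an internal start, 12449 to 38322 bp away, and not the 5′ end. Start sites of non-coding genes such as Gm32585 are left out of this count, so the assignment of these 7 to Scarb1 is uncertain.

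The strongest distal peak of Scarb1 was the one 7556 bp upstream, with 1.55 in replicate 1 and 4.57 in replicate 2, at percentiles 88.6 and 96.8 of all distal peaks of each library. On the 3′ side the peak 72814 bp from the 5′ end was highest in replicate 2, with 1.36 in replicate 1 and 3.70 in replicate 2, while in replicate 1 the peaks at 69384 and 88234 bp, with 1.46 and 1.39, stood above it. These peaks stood above the middle of the distal peaks in each library but below the Scarb1 promoter. Among the 11, 5 were also found in both shorter lists, a share that was not computed over all shared distal peaks. Signal was higher in replicate 2 at all 11, by a median factor of 1.79, against 2.21 over all shared distal peaks. The strongest peaks on either side are shown as called in replicate 2, with the bases that lay under a footprint in both libraries in capitals.
Scarb1 at 7556 bp upstream, chr5:125348561-125348740, plus strand: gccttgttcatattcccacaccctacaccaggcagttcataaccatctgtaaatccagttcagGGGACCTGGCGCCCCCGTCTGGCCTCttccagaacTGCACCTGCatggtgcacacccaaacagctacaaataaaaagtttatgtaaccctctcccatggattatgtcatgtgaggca
Scarb1 at 72814 bp past the 5′ end, chr5:125268181-125268380, plus strand: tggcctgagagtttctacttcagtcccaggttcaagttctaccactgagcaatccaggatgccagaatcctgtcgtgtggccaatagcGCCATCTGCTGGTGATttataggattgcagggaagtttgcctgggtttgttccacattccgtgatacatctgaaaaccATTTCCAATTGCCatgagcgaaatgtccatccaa

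In the upstream sequence 35 bases in 2 stretches lay under footprints of both libraries, and in the downstream one 29 bases in 2 stretches. The peak 27739 bp upstream, with 0.716 in replicate 1 and 1.28 in replicate 2, held the only match among the shared regions of the 10 genes to the strict motif of the insulator protein CTCF, which helps to shape chromatin loops. Footprints covered 11 of the 13 bases of the match in replicate 1 and 12 in replicate 2, and the match is given in capitals in the replicate 2 peak; 1.96% of all shared distal peaks hold this motif in 200 bp around their centre.
Scarb1 at 27739 bp upstream, chr5:125368747-125368920, plus strand: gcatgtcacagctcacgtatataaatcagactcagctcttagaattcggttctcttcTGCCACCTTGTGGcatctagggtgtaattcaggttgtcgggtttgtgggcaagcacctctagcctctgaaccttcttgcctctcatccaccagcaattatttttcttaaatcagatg

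**Figure D2:**
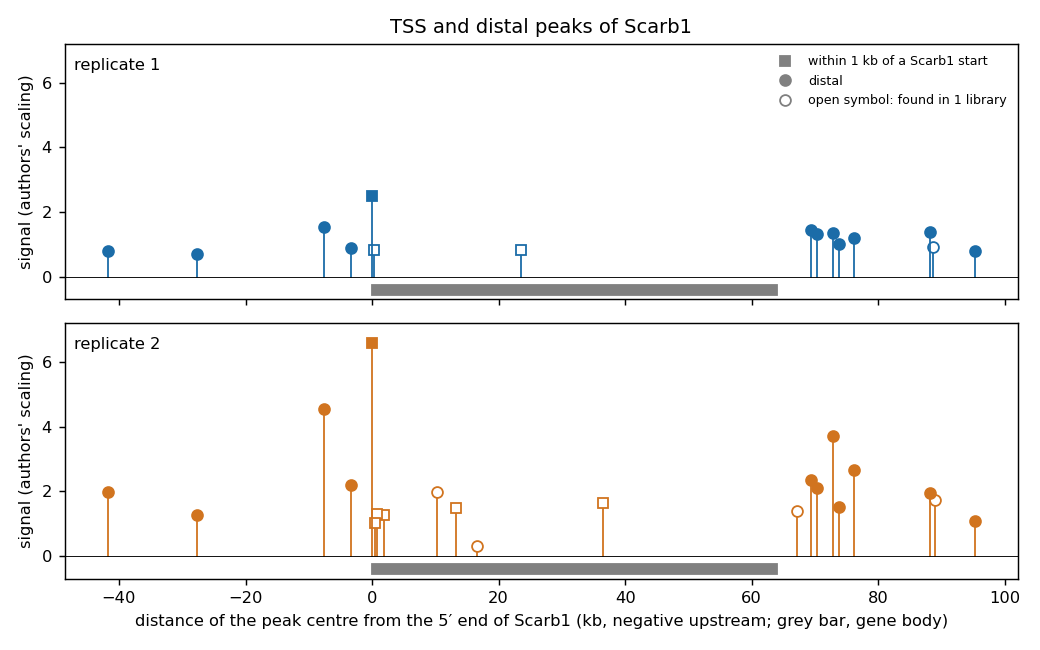
TSS and distal peaks of Scarb1 in replicate 1 (upper panel) and replicate 2 (lower panel), by the distance of the peak centre from the 5′ end of the gene in kb and by deposited signal (authors' scaling). Filled symbols mark regions found in both libraries; the promoter stands at 2.51 and 6.60, and 7 of the 11 shared distal peaks lie past the 3′ end.

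Soat1 and Lipe encode enzymes that work in opposite directions on stored cholesterol. Soat1, on chromosome 1 from 156424525 to 156474331, makes cholesteryl esters from free cholesterol, and Lipe, on chromosome 7 from 25379527 to 25398710, encodes hormone-sensitive lipase, which hydrolyses them. The Soat1 promoter peak over its 5′ end had 2.81 in replicate 1 and 4.38 in replicate 2, and 4 footprints in each library, of which 2 overlapped. Soat1 was the only one of the 10 genes with no shared distal peak; replicate 2 alone had peaks of 0.994 in an intron and 0.669 at 47980 bp upstream.

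Lipe had the highest TSS signal of the 10 genes in both libraries, and it did not lie at the most upstream annotated start site. No peak lay within 1 kb of that site, at 25398710. A pair of shared peaks stood inside the GENCODE gene. The stronger, from 25395541 to 25395840, had 2.87 in replicate 1 and 8.46 in replicate 2, at percentiles 73.3 and 90, and the other, from 25395881 to 25396180, had 1.88 and 4.35. A start site of Lipe in RefSeq, at 25395987, lay under the second of them. The antisense gene 4732471J01Rik also has a start site within 1 kb of both, so the peaks cannot be assigned to one of the genes. The 250 bases before and 50 after the most upstream GENCODE start site had a ratio of observed to expected CpG of 0.0548, the lowest of the 10 genes, whose median was 0.690 against 0.530 over all protein-coding genes.

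Of 11 distal regions of Lipe, 3 were shared. The one 25940 bp upstream had 1.36 in replicate 1 and 3.11 in replicate 2, and the protein-coding start site nearest to it was that of Cxcl17. In the 3′ part of the gene replicate 2 held 4 peaks in a row, from 25380601 to 25382500, with low signals of 0.853, 0.774, 0.501 and 0.273 but false discovery rates from 9.59e-42 to 3.86e-11. Replicate 1 had 0 bases below a false discovery rate of 0.05 in any of the 4. Such a pairing of a signal below 1 with a rate below 1e-10 was found at 6.96% of the replicate 2 peaks below that signal and at 0.658% of those of replicate 1.

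Plin2, on chromosome 4 from 86648386 to 86670060, encodes perilipin 2, a coat protein of lipid droplets. Its single TSS region, over the 5′ end, had 1.46 in replicate 1 and 2.60 in replicate 2, at percentiles 31.2 and 32.3, below the middle of all genes with a peak in both libraries. Both shared distal peaks lay upstream, at 16107 bp with 0.716 and 1.51 in replicates 1 and 2 and at 25220 bp with 0.571 and 1.42. Both were in the shorter list of replicate 2 and not in that of replicate 1. The nearer one held the string CAAGGTCA, the extended half-site bound by steroidogenic factor 1 (NR5A1), a nuclear receptor of steroid-producing cells, and all 8 bases of the match lay under a footprint in replicate 2 and 0 in replicate 1.

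Of the 3 efflux genes, Abca1 was open at its start sites in both libraries, and Apoe and Abcg1 in replicate 2 alone. Abca1, on chromosome 4 from 53030787 to 53159895, encodes a transporter that passes cholesterol to lipid-poor apolipoprotein A-I, Abcg1 one that passes it to high-density lipoprotein, and Apoe an apolipoprotein that binds lipoprotein receptors. At Abca1 the strongest TSS peak was not over the start site but in an intron, centred 1075 bp from the 5′ end, from 53158721 to 53158920, with 2.20 in replicate 1 and 6.30 in replicate 2. The peak at the 5′ end, from 53159861 to 53160180, had 1.36 and 5.24, a ratio of 3.84 between replicate 2 and replicate 1, the largest among the shared TSS regions of the 10 genes, where the median was 2.21. Over all shared TSS peaks the median ratio was 1.86. In replicate 1 this peak began upstream of the start site, and in replicate 2 it covered it. It held 7 footprints in replicate 1 and 5 in replicate 2. Between these peaks replicate 2 had another, of 0.809 at 534 bp, where replicate 1 had no peak but 107 bases below a false discovery rate of 0.05. The 1 shared distal peak of Abca1, 36275 bp upstream, had 1.27 in replicate 1 and 3.14 in replicate 2.

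The sequence before the Abca1 start site is shown because its peak is the most unequal between the libraries among the shared TSS regions of the 10 genes, and that of Stard3 because its strongest promoter peak differed between them. Both are the 250 bases before the RefSeq start (GRCm38.p6), read along the gene, with the GC box GGGCGG, to which SP and KLF factors bind, in capitals on either strand.
Abca1 promoter, chr4:53159896-53160145, minus strand: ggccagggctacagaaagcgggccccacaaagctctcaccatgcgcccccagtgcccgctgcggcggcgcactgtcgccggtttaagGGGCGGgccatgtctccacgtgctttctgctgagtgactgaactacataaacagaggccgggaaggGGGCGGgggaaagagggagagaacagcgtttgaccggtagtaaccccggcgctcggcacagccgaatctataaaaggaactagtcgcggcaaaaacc
Stard3 promoter, chr11:98358118-98358367, plus strand: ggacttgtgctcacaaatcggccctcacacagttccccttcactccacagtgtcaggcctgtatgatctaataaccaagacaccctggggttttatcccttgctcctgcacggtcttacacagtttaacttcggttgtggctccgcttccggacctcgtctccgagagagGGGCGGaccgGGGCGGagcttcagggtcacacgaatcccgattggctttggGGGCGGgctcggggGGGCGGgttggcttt
The Abca1 sequence held 2 GC boxes and that of Stard3 held 4. Of 32851 RefSeq promoters cut to the same length, 32.7% held at least 1. RefSeq promoters were matched for 7 of the 10 genes, leaving Scarb1, Abcg1 and Tspo.

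Apoe, on chromosome 7 from 19696109 to 19699188, had a weak TSS peak in replicate 2 alone, with 1.42 from 19698981 to 19699225, at percentile 16.6. Replicate 1 had 0 bases below a false discovery rate of 0.05 there. At 2052 bp upstream replicate 2 had a stronger distal peak of 3.06, in its shorter list, again with 0 such bases in replicate 1; a start of Tomm40 was nearer to it than that of Apoe. The only shared distal peak, with 1.62 and 5.01 in replicates 1 and 2, lay nearest to the start of Clptm1. The neighbours of Apoe were open in both libraries, Tomm40 with up to 2.52 and 5.99, Clptm1 with up to 3.58 and 8.22, and Apoc1 with up to 1.03 and 2.14, each within 1 kb of a start site of that gene. The weak Apoe peak therefore stood between stronger peaks of its neighbours.

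Abcg1, on chromosome 17 from 31057675 to 31117988, had the lowest TSS signal of the 10 genes, 0.730 in replicate 2 alone over a short stretch, with 0 footprints and 0 bases below a false discovery rate of 0.05 in replicate 1. In replicate 2 each of its distal peaks had a higher signal than its promoter. Of the 3 shared ones, the peak 61975 bp from the 5′ end, past the end of the gene, had 1.34 in replicate 1 and 2.91 in replicate 2. The peak 37945 bp upstream had 0.657 and 2.32, and a peak in an intron at 15795 bp had 1.12 and 1.40.

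Stard3, Tspo and Vdac1 act in the transfer of cholesterol towards mitochondria. Stard3, on chromosome 11 from 98358368 to 98381112, encodes a sterol-binding protein of late endosomes. It had 2 shared peaks at its start. The one over the start, centred 68 bp upstream, had 1.94 in replicate 1 and 3.67 in replicate 2, and the one centred 252 bp downstream had 1.79 and 4.33. Which of them was stronger thus differed between the libraries. The gene 1700003D09Rik also has a start site within 1 kb of both, so the peaks cannot be assigned to one of the genes, and an exon of it lies under the Stard3 promoter sequence given above. Of its 5 shared distal peaks, that at 15618 bp upstream was the strongest distal peak of the 10 genes in replicate 1, with 3.62, and had 6.19 in replicate 2, at percentiles 99.5 and 98.9 of all distal peaks. All 5 footprints of replicate 2 in it overlapped one of replicate 1. The nearest protein-coding start site, 5654 bp away, was that of Ppp1r1b, so its assignment to Stard3 is uncertain. At 12928 bp upstream a peak of 1.58 and 3.25 held the string CAAGGTCA, of which a footprint covered 3 of 8 bases in replicate 1 and 0 in replicate 2. Within Erbb2, past the 3′ end of Stard3, replicate 2 alone had 5 weak peaks between 0.123 and 0.493.

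Tspo, on chromosome 15 from 83563592 to 83574203, encodes an outer mitochondrial membrane protein that binds cholesterol; its part in steroid synthesis is debated. It had 3 shared TSS regions, the strongest over the 5′ end with 1.15 in replicate 1 and 3.11 in replicate 2, at percentiles 22.1 and 38.5. A start site of Mcat lies within 1 kb of all 3, so the peaks cannot be assigned to one of the genes. Of 3 shared distal peaks only that in an intron of Tspo, 2068 bp from the 5′ end with 0.921 and 1.87, lay nearest to a Tspo start site. It held 2 matches to TGANTCA, the AP-1 site of Fos and Jun proteins, of which footprints of replicate 2 covered 7 of 7 bases in one and 1 of 7 in the other, and footprints of replicate 1 none.

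Vdac1, on chromosome 11 from 52360860 to 52389397, encodes a channel of the outer mitochondrial membrane. In replicate 1 a broad peak of 600 bp with a signal of 2.12 covered its start, and replicate 2 had 2 peaks there, the stronger with 3.69. An internal start site had a further shared peak, 13660 bp into the gene, with 1.17 and 2.44 in replicates 1 and 2. Of its 5 shared distal peaks, that at 14400 bp upstream had 1.64 in replicate 1 and 6.53 in replicate 2, the highest distal signal of the 10 genes in replicate 2 and above every Vdac1 TSS peak there. The same was true of replicate 2 at Stard3, Apoe and Abcg1, where a distal peak stood above the strongest TSS peak. The strongest distal peaks of Vdac1 and Stard3 are given with the bases under footprints of both libraries in capitals.
Vdac1 at 14400 bp upstream, chr11:52346381-52346540, plus strand: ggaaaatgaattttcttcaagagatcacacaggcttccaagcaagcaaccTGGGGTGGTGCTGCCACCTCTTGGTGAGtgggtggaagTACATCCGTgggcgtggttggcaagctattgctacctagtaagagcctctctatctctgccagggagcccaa
Stard3 at 15618 bp upstream, chr11:98342661-98342840, plus strand: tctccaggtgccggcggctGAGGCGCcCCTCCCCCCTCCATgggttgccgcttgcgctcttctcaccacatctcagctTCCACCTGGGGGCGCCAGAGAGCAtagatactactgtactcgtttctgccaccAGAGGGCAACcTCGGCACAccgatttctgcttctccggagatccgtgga

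Footprinted bases of both libraries numbered 37 in the Vdac1 peak and 63 in the Stard3 peak. The Vdac1 peak, like the Scarb1 peak 72814 bp past the 5′ end, held a match to a shorter, looser CTCF motif, chosen after the sequences were seen, with all 12 bases under footprints in both libraries. In the Stard3 peak footprints covered 9 of the 12 bases of such a match in replicate 1 and 7 in replicate 2. Of the 34 shared distal peaks of the 10 genes, 16 held this looser motif within 200 bp, against 35.5% of all 17104 shared distal peaks. Of its 22 matches in all shared TSS and distal regions of the 10 genes, 14 overlapped a footprint by at least 1 base in replicate 1 and 15 in replicate 2, and 8 and 12 lay wholly under footprints. The string was chosen after sequences of some of these regions were seen, and no such share was computed over all shared peaks. These counts are therefore a description only.

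Distal regions were common near the 10 genes, and their number was carried by a few of them. Within 50 kb, 9 of the 10 genes, or 90%, had at least 1 shared distal peak, against 64.8% of all protein-coding genes; the median was 3 per gene against 1, in genes with a median length of 25641.5 bp against 17414 bp. Of 34 shared distal peaks Scarb1 had 11 and Stard3 and Vdac1 had 5 each. The total includes the Scarb1 peaks, several of which had been seen beforehand, so it is no independent evidence. Lipe, Abcg1 and Tspo had 3 each, Plin2 had 2, and Apoe and Abca1 had 1 each. Of all protein-coding genes 7.12% had 5 or more, 23.9% had 3 or more and 40.9% had 2 or more. Replicate 2 alone held 47 further regions and replicate 1 alone 1. Over the genome, 17104 of the 54728 distal peaks of replicate 2 overlapped a peak of replicate 1, so most were likewise not shared. Replicate 1 had 21409 distal peaks. Of the 34 shared regions, 18 were intergenic and 14 intronic, 2 lay inside the gene they were counted for, and for 15 the nearest protein-coding start site was that of another gene. These shares were not computed over all shared distal peaks. Signal at the shared distal peaks lay between 0.571 and 3.62 in replicate 1 and between 1.09 and 6.53 in replicate 2. It was higher in replicate 2 at all 34, by a median factor of 2.19. The shared TSS regions, 14 in all, had 44 footprints in replicate 1 and 48 in replicate 2, of which 23 overlapped one of replicate 1. The shared distal regions had 59 and 79, of which 38 overlapped. Footprint overlap over all shared peaks was not computed, so whether these counts are usual is unknown.

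**Figure D3:**
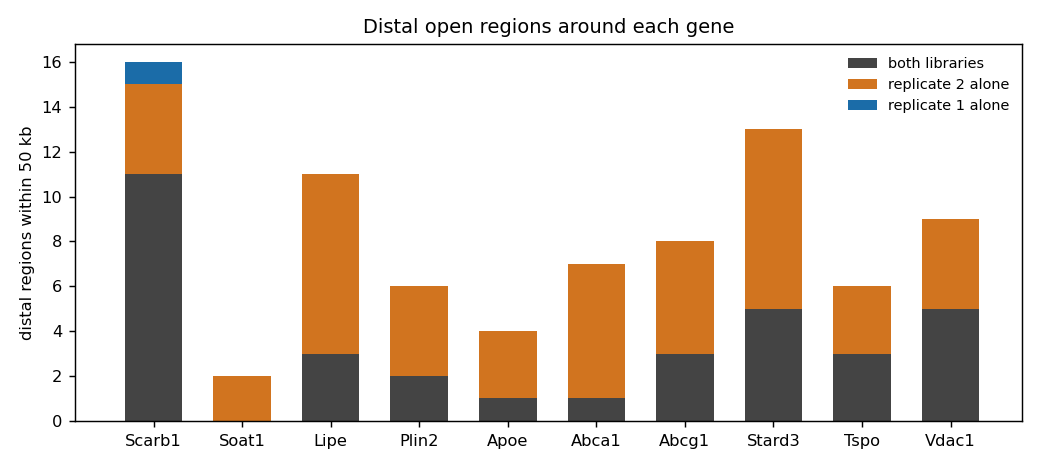
Number of distal regions within 50 kb of each of the 10 genes (vertical axis), stacked by whether the region was found in both libraries, in replicate 2 alone or in replicate 1 alone. Scarb1 has 11 regions in both libraries, Soat1 has none, and replicate 2 alone adds 47 regions over the 10 genes.

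**Figure D4:**
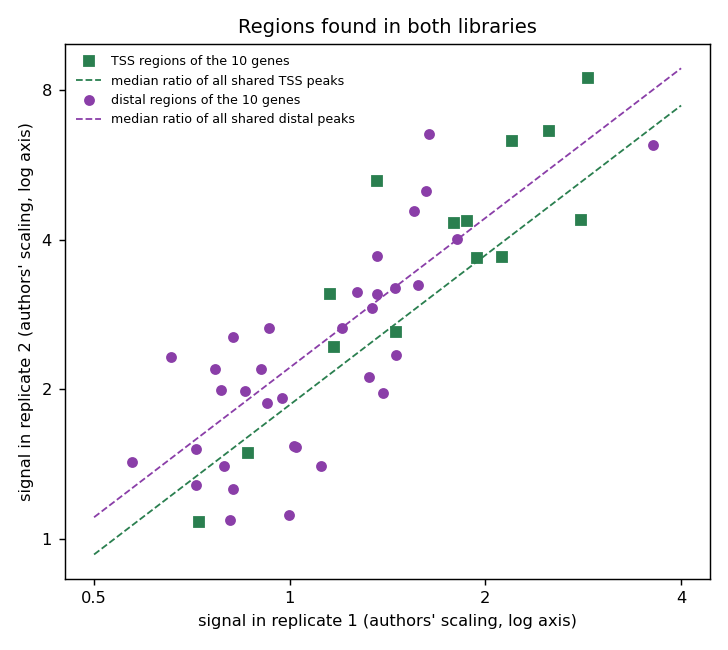
Deposited signal in replicate 1 (horizontal) and replicate 2 (vertical), both in the authors' scaling on log axes, for the 14 TSS regions and 34 distal regions of the 10 genes found in both libraries. Dashed lines give the median ratio of all shared TSS peaks, 1.86, and of all shared distal peaks, 2.21; every region of the 10 genes is higher in replicate 2.

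Matches to the steroidogenic factor 1 half-site were few. Motifs were searched on both strands in 200 bp around the centre of the replicate 2 peaks that overlap a replicate 1 peak, 17 at start sites and 34 distal. The string CAAGGTCA was present in 0 of the 17, against 0.699% of all shared TSS peaks, and in 2 of the 34, at Stard3 and Plin2, against 2.34% of all shared distal peaks. Its core AAGGTCA, which the NR4A site AAAGGTCA also contains, was present in 0 of 17, against 1.78%, and in 4 of 34, adding Scarb1 and Abcg1, against 4.87%. The Abcg1 match was the NR4A site, in the peak 37945 bp upstream. A further match to CAAGGTCA lay in a peak of Abcg1 found in replicate 2 alone, with 1.23 at 64468 bp from the 5′ end. These counts are too low to set the 10 genes apart from all peaks. The peaks that hold these matches are given with the match in capitals; that of Scarb1, 88234 bp from the 5′ end, is cut to 200 bp around its centre.
Stard3 at 12928 bp upstream, chr11:98345361-98345520, plus strand: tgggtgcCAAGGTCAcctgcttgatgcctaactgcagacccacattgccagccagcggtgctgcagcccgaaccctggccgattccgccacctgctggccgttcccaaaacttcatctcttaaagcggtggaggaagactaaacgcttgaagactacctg
Plin2 at 16107 bp upstream, chr4:86686075-86686260, plus strand: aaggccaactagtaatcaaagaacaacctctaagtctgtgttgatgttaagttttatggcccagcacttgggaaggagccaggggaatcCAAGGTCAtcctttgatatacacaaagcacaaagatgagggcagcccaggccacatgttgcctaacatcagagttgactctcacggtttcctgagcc
Abcg1 at 64468 bp past the 5′ end, chr17:31122067-31122220, plus strand: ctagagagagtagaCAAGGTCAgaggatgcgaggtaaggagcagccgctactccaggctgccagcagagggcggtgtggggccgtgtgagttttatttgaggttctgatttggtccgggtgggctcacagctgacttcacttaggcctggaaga
Abcg1 at 37945 bp upstream, chr17:31019641-31019820, plus strand: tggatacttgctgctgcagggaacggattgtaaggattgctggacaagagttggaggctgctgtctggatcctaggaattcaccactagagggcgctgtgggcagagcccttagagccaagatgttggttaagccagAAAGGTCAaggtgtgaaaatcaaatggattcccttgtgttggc
Scarb1 at 88234 bp past the 5′ end, chr5:125252761-125252960, plus strand: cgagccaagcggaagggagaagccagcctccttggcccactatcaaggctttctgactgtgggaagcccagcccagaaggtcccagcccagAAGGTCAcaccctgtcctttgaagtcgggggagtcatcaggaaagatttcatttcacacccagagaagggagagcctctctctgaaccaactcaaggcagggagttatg

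Of these 5 matches only those at Stard3 and Plin2 overlapped a footprint, each in 1 library. Further matches to the core AAGGTCA, under no footprint, lay in regions of Scarb1 and Plin2 found in 1 library and are not shown. GC boxes (GGGCGG) were present in 10 of the 17 TSS peaks, at all 8 genes that had such peaks, against 56.8% of all shared TSS peaks, and in 5 of the 34 distal peaks, against 14.6%. The CCAAT box, bound by NF-Y, was present in 7 of 17 TSS peaks, at Abca1, Lipe, Soat1, Stard3 and Tspo, against 24.6%, and in 5 of 34 distal peaks, against 21.6%. The AP-1 string TGANTCA was present in 1 of 17 TSS peaks, against 2.85%, and in 2 of 34 distal peaks, at Tspo and Vdac1, against 9.43%. The sterol response element TCACCCCAC was found in none of these windows, against 0.334% of all shared TSS and 0.333% of all shared distal peaks. The cAMP response element TGACGTCA was found in none either, against 2.25% and 0.491%. Nor was the fixed string searched for the spaced direct repeat (DR4) bound by liver X receptors, against 0.0226% and 0.0760%. These receptors control Abca1 and Abcg1. Repeats with other letters were not searched. Whether these peaks, those at the Abca1 start included, hold a liver X receptor site was therefore not tested. For each motif, absence says only that the letters searched are not in these windows.

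Among 49 other genes of the same processes, start sites were open in both libraries at 35, or 71.4%, against the 61.3% of all protein-coding genes. A further 5 had a TSS peak in replicate 2 alone and 9 had none. With the most upstream start site only, 29 of the 49 genes and 56.8% of all genes had a peak in both libraries. Genes of intracellular and mitochondrial transfer were open at 12 of 13, led by Osbp, an oxysterol-binding protein, with 3.56 in replicate 1 and 8.27 in replicate 2, and Vdac3, a channel like Vdac1, with 4.09 and 6.77. The exception was Star, which carries cholesterol into mitochondria, with 2.73 in replicate 2 alone. All 3 genes of lysosomal release were open, with 3.80 and 9.41 at Npc1 and 2.98 and 5.27 at Npc2, whose peak lies within 1 kb of a start of Isca2. Lipoprotein receptors and their regulators were open at 8 of 11. Mylip, an enzyme that marks the low-density lipoprotein receptor for degradation, had 3.61 and 8.78, and Scarb2, a lysosomal relative of Scarb1, 2.99 and 5.55. Pdzk1, an adaptor of the Scarb1 protein, had no TSS peak.

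Genes of ester turnover and lipid droplets were open at 7 of 11, led by Abhd5, an activator of triglyceride lipase, with 4.00 in replicate 1 and 7.98 in replicate 2, and Plin3, another droplet protein, with 3.35 and 8.30. Cel and Plin4 were among 3 with no TSS peak. The other efflux and lipoprotein genes had the lowest share, 5 of 11, or 45.5%. Abca7 had 3.26 and 9.75, and Nr1h2, a liver X receptor, 2.48 and 5.62, while the sterol transporters Abcg5 and Abcg8 were among 4 with none. Whether the role groups differ was not tested.

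**Figure D5:**
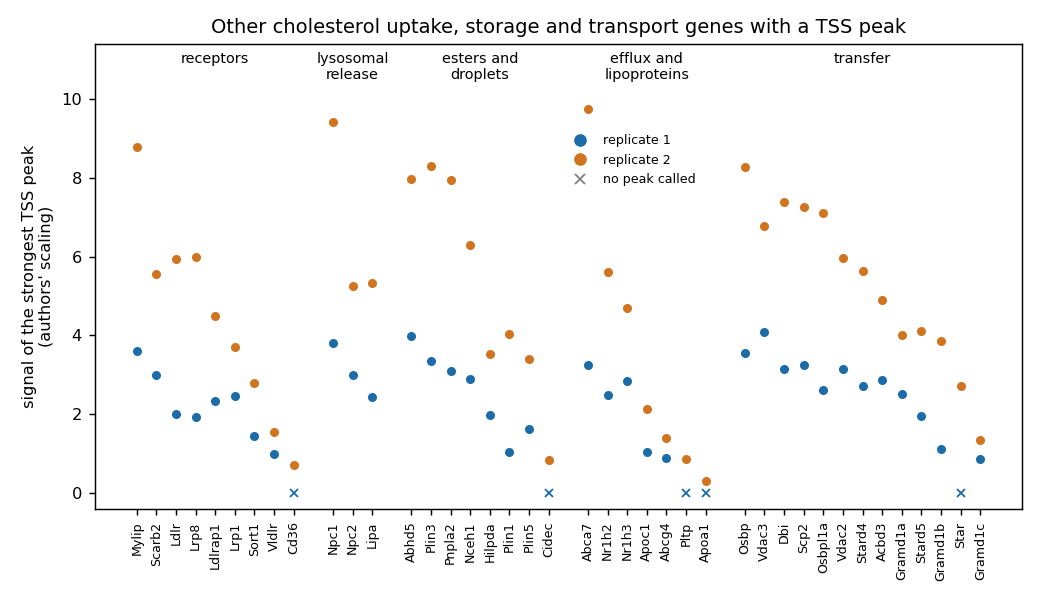
Deposited signal of the strongest TSS peak (vertical axis, authors' scaling) for the 40 of 49 other genes of cholesterol uptake, storage and transport that had one in at least 1 library, by role and in falling order of the mean of both libraries, with 1 point per library and a cross where no peak was called in that library. Transfer genes have a peak in both libraries at 12 of 13 and efflux and lipoprotein genes at 5 of 11.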

How the data were processed

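DNase-seq was measured in 2 adrenal gland libraries of 1 group. Per the labels the assembly is mm10. Per the text file deposited with each sample, the lists were derived from the filtered alignments of its library; the sources used here do not name callers, filters or depth. The authors deposited a signal per peak, used as is. They deposited false discovery rates of the cut rate, which are adjusted p-values and are listed only below 0.05, and footprints with a constant p-value of 0.01, taken as a threshold.

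Peaks were placed on GENCODE release M21 and GRCm38.p6, which is the build of mm10; 0 peaks reached past a chromosome end. Libraries were compared by an overlap of at least 1 bp with Python 3.11.15, pysam 0.24.0, samtools 1.23.1 and bedtools 2.31.1, and plotted with matplotlib 3.10.9. Coordinates are 1-based. Percentiles are ranks within a library. The motif search found all 2400 planted matches and the overlap search was right in all 1000 queries on simulated data. The 10 genes, the lists and the motifs were chosen with earlier results of these data known. All 10 genes are named; of the other genes of the pathway, those named are per role the 2 with the highest mean signal and up to 2 without a TSS peak in alphabetical order. Markers of the gland are named, of other cells the strongest, and neighbouring genes were named after their values were seen. Some genes that these rules would name are not reported here. No test was made, since there is 1 group. The alternatives tried were the shorter lists, 1 library alone, 50% reciprocal overlap, other TSS windows, other distances and other motif windows and strings.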

Additional observations from a re-analysis of the deposited data

How the results depend on the processing

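No paired analysis was possible because there is 1 group. Counts stayed within 1.5 times of their reported value in 29 of 40 comparisons with an alternative. The count of genes open at a start site in both libraries was 8 to 10 with 1 library alone and 7 with the most upstream start site only, where Lipe dropped out. The 34 shared distal peaks became 16 with the shorter lists, 21 within 25 kb, 56 within 100 kb, 20 by nearest protein-coding start site, and 35 to 81 with 1 library alone. For Scarb1 the 11 became 5 with the shorter lists and 21 within 100 kb, and 12 to 15 with 1 library alone. The 2 regions with CAAGGTCA became 1 with the shorter lists, 4 with the core AAGGTCA, and 2 to 3 with 1 library alone. The 61 footprints shared between libraries stood against 96 to 190 counted in 1 library alone. The 35 other pathway genes became 35 to 40 with 1 library alone and 31 with the shorter lists. They became 31 with 50% reciprocal overlap and 29 with the most upstream start site only. The looser CTCF motif, chosen after seeing the data, was in 17 regions against 1 with the strict one. Fewer peaks are listed in replicate 1, and read depth is unknown, so a peak not called there is not shown to be closed.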

Other observations

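The chromosome around several of the 10 genes held open start sites of neighbours, counted apart from their distal peaks. Within 50 kb of the 10 genes lay 37 such regions, of which 21 were found in both libraries. In replicate 2 the highest was at Nipsnap3b, past the 3′ end of Abca1, with 3.52 in replicate 1 and 10.2 in replicate 2, above every TSS peak of Abca1 itself; in replicate 1 the highest was that at Clptm1, next to Apoe. Ttll12, next to Tspo, had 2.72 and 6.34, and the start of 9530068E07Rik, next to Vdac1, 2.36 and 5.33. Of the shared regions of neighbours, 20 were higher in replicate 2. The exception, of 0.674 in replicate 1 and 0.554 in replicate 2, lay in an intron of Haus6 near its start, next to Plin2.

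Peaks of replicate 2 with a signal below 1 and a false discovery rate below 1e-10 were found near 3 of the 10 genes. Apart from the 4 inside Lipe, 1 lay in Erbb2 next to Stard3, with a signal of 0.493 and a rate of 8.97e-22, and 1 at Apoc4 next to Apoe, with 0.589 and 3.35e-33. Over the genome such peaks numbered 3076 in replicate 2 and 165 in replicate 1; both limits were chosen after the values were seen. Another Apoc4 peak of replicate 2, with a signal of 2.81, had a rate of 6.29e-125, and replicate 1 had 0 bases below a rate of 0.05 in it. The cause was not tested.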
